A study of Rattus norvegicus with 23 samples.

Results

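The genes described here encode subunits of potassium, sodium, calcium and pacemaker channels in rat myocardium after infarction, with and without an implanted device called TRD. Members were taken by symbol alone: every row whose name begins with Kcn, Cacn, Scn and a digit, or Hcn and a digit. At 12 weeks 56 of the 10723 genes with a value per library were members, and all 56 were among the 10633 genes that passed the filter on low values. The authors' tables of comparisons, at 6 and at 12 weeks, held 62 members among 11283 genes. The 6 members found in those tables alone were Cacnb1, Kcnab2, Kcne4, Kcnn2, Scn2a and Scn4a.

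The series held 23 libraries of polyadenylated RNA from the hearts of Sprague-Dawley rats. All rats had a myocardial infarction (MI), made by tying the left coronary artery through an opening in the chest. In the MI+TRD groups a later operation added the device, so the device and the added operation cannot be told apart. There were 6 MI and 6 MI+TRD libraries at 12 weeks, and 6 MI and 5 MI+TRD libraries at 6 weeks. The treatment labels give these weeks as post op, after MI surgery or MI+TRD surgery. For MI+TRD they do not say from which operation the weeks were counted. No group without infarction was used here, and the labels used here give no age, no sex, no animal identifiers, no description of the device and no statement of whether scar or distant muscle was sampled. Values per library were used at 12 weeks, and the authors' own group means, ratios and p-values at 6 weeks.

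A heartbeat depends on these proteins in sequence. Sodium channels open first and carry the upstroke of the action potential. L-type calcium channels then hold the plateau and trigger contraction, and several potassium channels end it: the transient outward current early, the delayed rectifiers later, and the inward rectifiers at rest. Pore subunits form the conducting channel. Accessory subunits, such as the sodium channel beta subunits, the calcium channel beta and alpha2delta subunits and KChIP2, set how much channel reaches the membrane and how it gates. Loss of transient outward and delayed rectifier current is well known in infarcted and failing hearts, where it lengthens the action potential.

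Promoter sequences show features that the choice by name did not use. RefSeq (GRCr8) gave 40 windows, each the 250 bases before a transcription start, for 35 of the 56 members. The word GGGCGG, the core of a GC box, was searched on both strands and stood in 24 of the 40 windows (60.0%), beside 38.9% of the 21851 windows of protein-coding genes of the same length. TATAAA stood in 0 of 40 member windows and in 12.1% of all windows. CCAAT stood in 12.5% of member windows and 35.0% of all, and CANNTG, the E-box, which reads the same on both strands, in 47.5% and 63.3%. AGATAA, a motif of cardiac zinc finger factors, stood in 4 of 40 member windows and 9.17% of all. The CArG box stood in 0 of 40 and 1.52%, and the MEF2 site, whose letters can overlap TATAAA, in 0 of 40 and 2.69%. Member windows held a median of 17 CG dinucleotides and 66.4% G or C, against 8 and 54.0% over all windows. These matches describe letters only. The members have a value at 12 weeks in this tissue, whereas the windows of all protein-coding genes were not limited to such genes. Nor were they matched for G or C content. The part of either in these differences was not tested. Windows of 3 kinds are shown for genes that recur below: a CG-rich one (Cacna1a, 34 CG dinucleotides), a CG-poor one (Scn7a, 2) and that of an atrial potassium channel (Kcnj5, 8). They lie at chr19:40650469-40650718, chr3:71846285-71846534 and chr8:39011097-39011346 of GRCr8, all on the minus strand, and capitals mark GGGCGG read on either strand.
Cacna1a: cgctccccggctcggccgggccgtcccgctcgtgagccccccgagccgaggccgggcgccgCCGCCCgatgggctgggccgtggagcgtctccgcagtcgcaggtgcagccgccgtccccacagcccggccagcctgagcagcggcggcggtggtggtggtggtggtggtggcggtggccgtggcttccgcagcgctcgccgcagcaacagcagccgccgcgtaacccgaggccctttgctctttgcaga
Scn7a: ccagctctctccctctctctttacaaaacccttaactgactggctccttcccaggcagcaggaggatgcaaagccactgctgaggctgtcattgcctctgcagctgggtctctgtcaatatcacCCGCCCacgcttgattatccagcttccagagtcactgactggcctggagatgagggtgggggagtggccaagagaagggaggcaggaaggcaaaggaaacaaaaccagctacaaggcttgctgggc
Kcnj5: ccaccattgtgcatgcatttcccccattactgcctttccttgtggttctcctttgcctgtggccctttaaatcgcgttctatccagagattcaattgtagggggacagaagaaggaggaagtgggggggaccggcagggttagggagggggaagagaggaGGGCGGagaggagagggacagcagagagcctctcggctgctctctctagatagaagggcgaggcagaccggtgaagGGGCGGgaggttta

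Over the 10723 genes with a value per library, the libraries at 12 weeks held 7197118 to 10304156 recovered reads. These were computed from the deposited values, taking the smallest value of each library as 0 reads. A value below is a normalized count, the deposited number of reads per gene after scaling, not divided by gene length, so levels are compared between libraries and not between genes. Log2 fold changes are MI+TRD against MI. They are given relative to the median of all genes tested, which was -0.14 on the deposited scale and lay between -0.17 and 0.08 under other settings. P-values stay on the deposited scale. In bulk tissue, fewer cells of a type and less RNA per cell cannot be told apart.

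MI+TRD replicates 1, 4 and 5 stood apart from the other 9 libraries. They held 119, 114 and 178 genes at 0 reads, against 13 to 75 elsewhere. The median of genes of up to 20 kb was lower in them than that of all genes tested, short ones included. The difference was -0.22, -0.22 and -0.23 on the log2 scale, against -0.05 to 0.05 elsewhere. The median member, relative to all genes, stood at 0.22, 0.33 and 0.09 in these libraries and at -0.14, 0.00 and -0.31 in MI+TRD replicates 2, 3 and 6. In the MI libraries it lay between -0.07 and 0.11. All 5 ventricular markers were present in all 12 libraries, at unlike levels. Myh6, the fast myosin heavy chain of rat ventricle, lay between 7296 and 19852, and Myl3 between 1758 and 5109. Myl2 lay between 69.4 and 392, and Irx4 between 5.77 and 17.3. Skeletal muscle markers were near 0, with 3 of 10 in the table. Markers of other tissue stood out in single libraries: atrial in MI replicate 2 and smooth muscle, apart from Smtn, in MI+TRD replicate 5. In MI+TRD replicate 6 macrophage and epicardial markers stood out, with the collagens Col1a1 and Col3a1. There the fibroblast markers summed to 2446, against 612 to 1115 elsewhere, mostly through Col1a1 (1073) and Col3a1 (986). Dcn (278) and Lum (57.7) lay within their MI ranges. Tcf21 (6.88) was below its MI range and Pdgfra (44.9) above it, though Pdgfra read 58.7 in MI+TRD replicate 5. The epicardial markers summed to 87.8 in MI+TRD replicate 6, against 9.44 to 49.3 elsewhere. Hba2, a hemoglobin gene, read 88.3, 234 and 465 in MI+TRD replicates 1, 4 and 5 and at most 25.7 elsewhere. Other red cell markers did not set these 3 libraries apart as a set. Hbb read 83.2, 176 and 202 in them, against 66.7 to 307 in MI. Alas2 read 1.25, 6.28 and 11.8, against 1.26 to 6.76 in MI. Of the 5 ventricular markers, Myl2 and Myl3, the ventricular myosin light chains, were lower in MI+TRD at an unadjusted p below 0.05. By that rule 19.1% of all genes were lower. Myh6, Myh7 and Irx4 were not, at relative log2 changes of 0.07, 0.14 and 0.03. The part of these markers in the results was not tested. Of the epicardial markers, 5 of 6 were higher in MI+TRD at an unadjusted p below 0.05 (Msln, Upk1b, Krt8, Krt18 and Krt19). Over all genes 2.8% were higher by the same rule, a share that moved with the scaling, as given below. None of these markers passed adjustment.

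At 12 weeks no channel subunit differed between MI+TRD and MI past adjustment, and Cacna1a and Scn3b, both lower in MI+TRD, were among those with the smallest p. Limma called 0 of 56 members at an adjusted p below 0.05, and 0 of 10633 genes in all (0.0%). On the recovered reads edgeR called 0 members and 0 genes in all, and DESeq2 called 0 members and 18 genes in all. At an unadjusted p below 0.05, 3 members were lower (5.36%), where 19.1% of all genes were, and 0 were higher, where 2.8% of all genes were. The surplus of lower genes depended on the scaling: with equal column totals 1207 genes were higher and 412 lower, with median ratios 797 and 877. The 3 members were lower at an unadjusted p under each of those scalings, and 1 member, Kcnd1, was then higher. In 0 of 56 members did the 6 MI+TRD values lie wholly below or above the 6 MI values, beside 1.59% of all genes below and 0.113% above. The median member stood at 0.02 relative to all genes, with 33 above and 23 below 0.

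**Figure D1:**
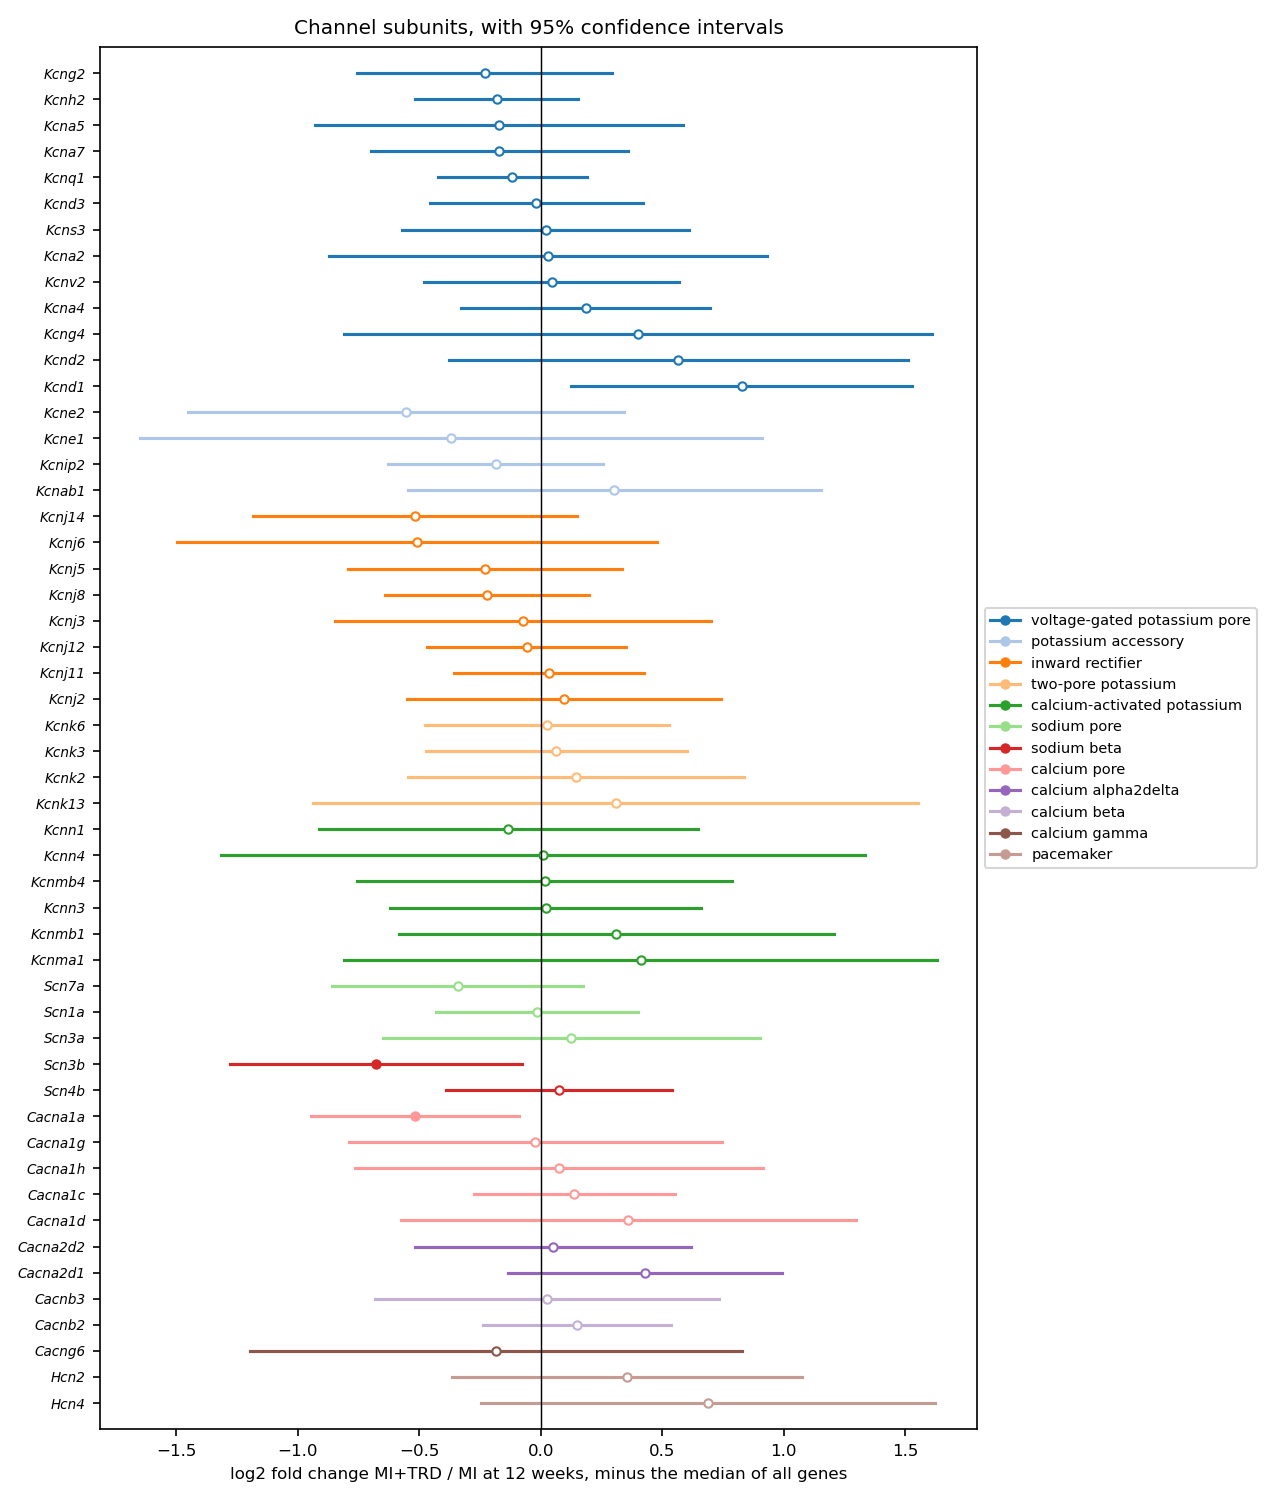
Log2 fold change of MI+TRD against MI at 12 weeks for 52 subunits, minus the median of all genes tested (x axis), with 95% confidence intervals as bars, ordered and coloured by role. Filled points had an unadjusted p below 0.05: Scn3b and Cacna1a, both left of 0. Most intervals cross 0, that of Kcnd1 does not, and none passed adjustment.

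Among the sodium channel genes, Scn3b was lower at an unadjusted p. Sodium channel beta subunits are single-pass proteins that bind the pore, adjust its gating and act in cell adhesion. Scn3b, the gene of such a subunit, lies on chromosome 8 from 44136496 to 44159012 of rn6. Its values ran from 4.33 to 11.8 in MI (median 5.14) and from 2.10 to 6.87 in MI+TRD (median 3.002). The groups overlapped through MI+TRD replicate 5 alone, as the other 5 MI+TRD libraries were below the lowest MI value. MI replicate 1 stood far above its group. The means were 6.25 ± 2.80 and 3.49 ± 1.74 (SD, n = 6 each, as below), a relative log2 change of -0.68 (SE 0.28, limma adjusted p = 0.138). Without MI+TRD replicates 1, 4 and 5 it was also -0.68, and without MI replicate 1 it was -0.48.

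Scn4b, the beta subunit linked to resurgent sodium current, averaged 96.6 ± 40.8 in MI and 87.0 ± 13.8 in MI+TRD, a relative change of 0.08 (95% interval -0.39 to 0.54). Of the pores, Scn7a, a sodium-sensing channel that is not opened by voltage, lay between 18.5 and 57.9 in MI (median 32.8) and between 17.2 and 31.6 in MI+TRD (median 21.9). All 6 MI+TRD values were under the MI mean of 34.2 ± 13.6, yet the ranges overlapped widely. The relative change was -0.34, and the gene did not pass (limma adjusted p = 0.259). Over all settings tried the change of Scn7a ranged from -0.49, with the gene span trend removed, to -0.036, with the atrial marker score as a covariate. Without MI replicate 2, where Scn7a was highest, it was -0.19. Scn1a, a neuronal pore that is also found in heart, stood at -0.02 and Scn3a, also a neuronal pore, at 0.13.

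**Figure D2:**
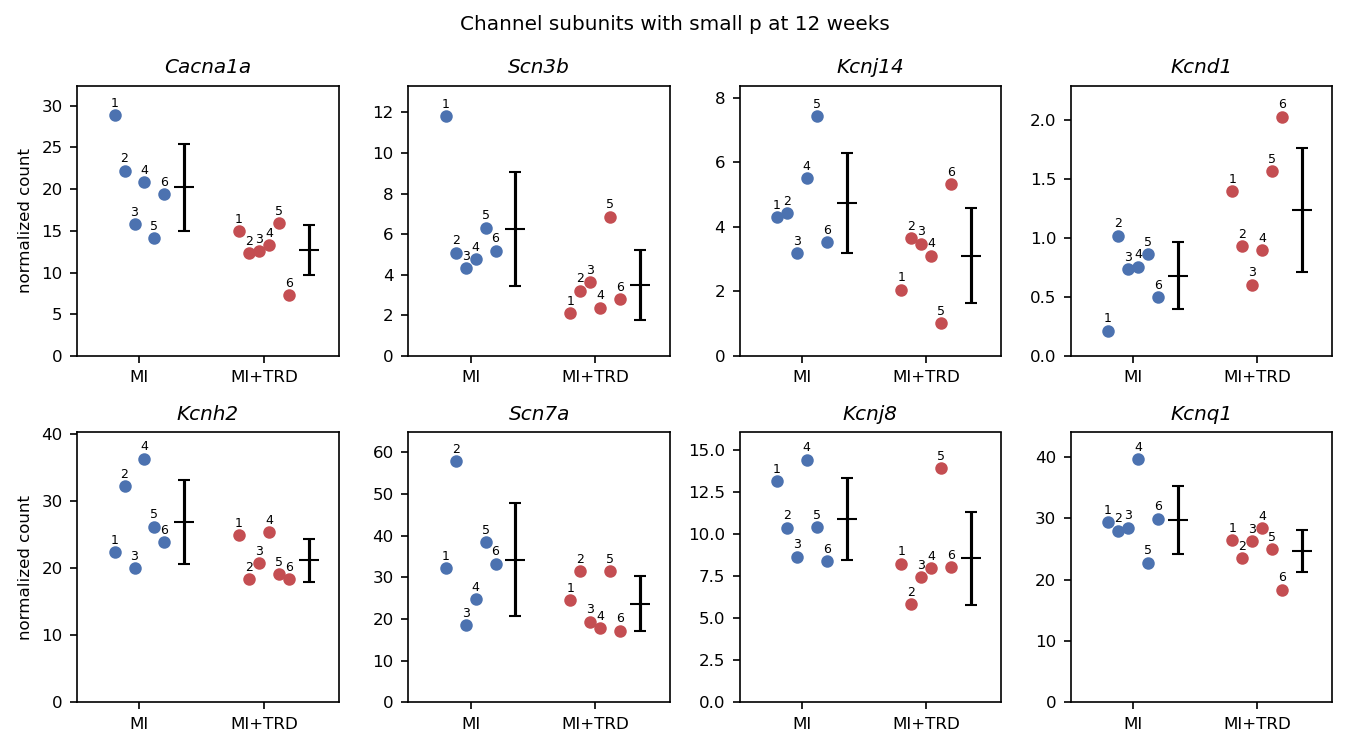
Normalized counts (y axes, each from 0) of 8 subunits with small limma p at 12 weeks, in the 6 MI libraries (blue) and the 6 MI+TRD libraries (red). Points are libraries with their replicate numbers, and bars give the mean and SD. Cacna1a is lowest in MI+TRD replicate 6, Scn3b is highest in MI replicate 1, and in each panel the groups overlap.

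Among the calcium channel genes Cacna1a was lower at an unadjusted p. This gene (chromosome 19, 25526751 to 25749551) encodes the P/Q-type pore, best known at synapses, and lay between 14.1 and 28.9 in MI (median 20.1) and between 7.32 and 15.9 in MI+TRD (median 12.9). All 6 MI+TRD values were below the MI mean, and 4 were below the lowest MI value. The means were 20.2 ± 5.24 and 12.7 ± 2.996, a relative change of -0.52 (SE 0.20, limma adjusted p = 0.132). Over all settings tried it ranged from -0.75, without MI+TRD replicates 1, 4 and 5, to -0.34, without MI+TRD replicate 6.

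The calcium pores of the working heart differed less between the groups. Cacna1c, the L-type pore of the ventricle, lay between 76.3 and 121 in MI and between 57.4 and 124 in MI+TRD. Its means were 91.0 ± 16.2 and 93.5 ± 28.1, a relative change of 0.14 (95% interval -0.27 to 0.55). The MI+TRD values fell in 2 sets, 123.6, 115.8 and 114.0 in replicates 1, 4 and 5, and 66.3, 84.0 and 57.4 in the others. Without replicates 1, 4 and 5 the relative change was -0.24, lower at an unadjusted p. The T-type pores Cacna1g and Cacna1h, which are typical of pacemaker and fetal muscle, stood at -0.02 and 0.07. Cacna1h reached 50.6 in MI replicate 1 and 7.15 in MI replicate 3. Cacna1d, the L-type pore of atrium and sinus node, stood at 0.36 (SE 0.44).

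Of the calcium accessory subunits, Cacna2d1, the alpha2delta protein bound by gabapentin, had the largest relative change. It lay between 4.84 and 10.4 in MI and between 4.38 and 14.9 in MI+TRD, with 14.9, 12.8 and 12.3 in replicates 1, 4 and 5. Its relative change was 0.43 (95% interval -0.13 to 0.99), and without those libraries -0.05. Cacnb2, the main cardiac beta subunit, averaged 37.4 ± 10.1 and 37.3 ± 8.55, at 0.15. Cacna2d2, Cacnb3 and Cacng6 lay between -0.18 and 0.05.

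Among the 15 voltage-gated potassium pores, 0 were lower and 0 higher at an unadjusted p, and relative changes ran from -0.23 to 0.83 around a median of 0.02. Kcnd1, a pore of the Kv4 family that carries transient current, gave the upper end. It lay between 0.215 and 1.02 in MI (median 0.746) and between 0.604 and 2.03 in MI+TRD (median 1.17), so it was near the lower end of what these libraries measure. Of the MI+TRD values, 5 of 6 were above the MI mean and the ranges overlapped. Its relative change was 0.83 (SE 0.33, limma adjusted p = 0.239), and edgeR and DESeq2 placed it under an unadjusted p of 0.05.

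The transient outward current of rat ventricle is built from Kcnd2 and Kcnd3 with KChIP2. Kcnd2 lay between 1.64 and 9.31 in MI (median 2.02) and between 1.43 and 7.91 in MI+TRD (median 4.85). In MI it was high in replicates 3 and 6 and low in the other 4. The relative change of 0.57 carried a wide interval, from -0.38 to 1.51. Kcnd3 averaged 18.8 ± 5.75 and 16.8 ± 4.85, at -0.02. Kcnip2, the KChIP2 gene, averaged 359 ± 86.7 in MI and 285 ± 68.3 in MI+TRD, with 5 of 6 MI+TRD values below the MI mean. Its relative change was -0.19 (limma adjusted p = 0.377), and -0.035 without MI+TRD replicate 6. The annotated row of Kcnip2 spans 2681 kb with 24 other genes of the table inside it, so some of its reads may belong to those genes. Kcna4, the slower transient pore, averaged 1.56 ± 0.405 and 1.62 ± 0.453, at 0.19.

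Pores of the delayed rectifiers gave small relative changes. Kcnh2, the hERG channel of rapid repolarisation, lay between 20.01 and 36.3 in MI (median 25.0) and between 18.3 and 25.4 in MI+TRD (median 19.9). All 6 MI+TRD values were below the MI mean of 26.8 ± 6.23. The relative change was -0.18 (SE 0.16, limma adjusted p = 0.247). Kcnq1, the slow delayed rectifier, also had 6 of 6 MI+TRD values below the MI mean and stood at -0.12. Kcna5, the ultrarapid pore, stood at -0.17. Kcng2, a silent subunit that acts only with another pore, averaged 71.5 ± 22.1 and 56.3 ± 20.7, at -0.23. Without MI+TRD replicate 6 Kcnq1 stood at -0.0048 and Kcng2 at -0.053. Another 5 voltage-gated pores (Kcna2, Kcna7, Kcng4, Kcns3 and Kcnv2) lay between -0.17 and 0.40. Of the small accessory subunits, Kcne1 and Kcne2 had under 4 normalized counts in each library and 0 reads in MI+TRD replicates 1 and 5 or 5, respectively, which allows up to 3 reads. Their relative changes of -0.37 and -0.55 had standard errors of 0.60 and 0.42. Kcnab1, the remaining accessory gene with values per library, stood at 0.30.

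Inward rectifiers keep the resting potential, and 6 of the 8 had relative changes below 0. Kcnj14 had the smallest p, with 3.19 to 7.43 in MI (median 4.36) and 1.02 to 5.33 in MI+TRD (median 3.30), at -0.52 (SE 0.31, limma adjusted p = 0.233). Its lowest values, 2.05 and 1.02, came from MI+TRD replicates 1 and 5, and without replicates 1, 4 and 5 the change was 0.0026. Kcnj2 and Kcnj12, the main pores of the resting ventricular current, averaged 2.23 ± 0.989 against 2.08 ± 0.772 and 10.2 ± 2.66 against 8.81 ± 2.17, at 0.10 and -0.06. Kcnj11 is the pore of the ATP-sensitive channel of heart muscle. It averaged 92.8 ± 18.0 and 87.9 ± 26.3, at 0.03. Its vascular counterpart Kcnj8 lay between 8.40 and 14.4 in MI and between 5.85 and 13.9 in MI+TRD, at -0.22 (limma adjusted p = 0.301). The 13.9 stood in MI+TRD replicate 5, and the other 5 MI+TRD values were below the lowest MI value. Kcnj3 and Kcnj5, which form the acetylcholine-gated channel of atrium and sinus node, averaged 12.9 ± 8.18 against 10.6 ± 4.71 and 24.1 ± 10.1 against 17.8 ± 4.41. Their relative changes were -0.07 and -0.23, and for Kcnj5 all 6 MI+TRD values were below the MI mean. Without MI+TRD replicate 6 Kcnj5 stood at -0.039, and without MI replicate 2 at -0.072. Kcnj6, a channel of the same G-protein-gated kind, stood at -0.51 with a standard error of 0.46 and had 0 reads in MI+TRD replicate 5.

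Tandem-pore channels, which carry background potassium current, numbered 4 and stood between 0.03 and 0.31. Kcnk3, the acid-sensitive TASK channel, averaged 46.7 ± 16.4 and 44.6 ± 15.7, at 0.06. The row of Kcnk6 spans 1010 kb with 10 other genes of the table inside it, so its reads too may be shared. Of the 6 calcium-activated subunits, relative changes lay between -0.13 and 0.41, with standard errors from 0.30 to 0.62. Of these, Kcnma1, Kcnmb1 and Kcnn4 each had 1 library far above the others, given below.

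The pacemaker pores had positive relative changes. Hcn4, the channel of the sinus node, lay between 5.39 and 49.7 in MI (median 12.2) and between 11.3 and 30.4 in MI+TRD (median 21.5). MI replicate 4, at 49.7, was far above the other MI libraries. Its relative change was 0.69 (SE 0.44, 95% interval -0.25 to 1.62), and without MI replicate 4 it was 1.03, higher at an unadjusted p. Without MI replicate 2 it was 0.42, and with the atrial marker score as a covariate 0.29. Hcn2, the ventricular pacemaker pore, averaged 57.6 ± 25.3 and 63.4 ± 23.6, at 0.36, and at 0.035 without MI replicate 2. Both genes were lowest in MI replicate 2, at 5.39 and 17.7.

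**Figure D3:**
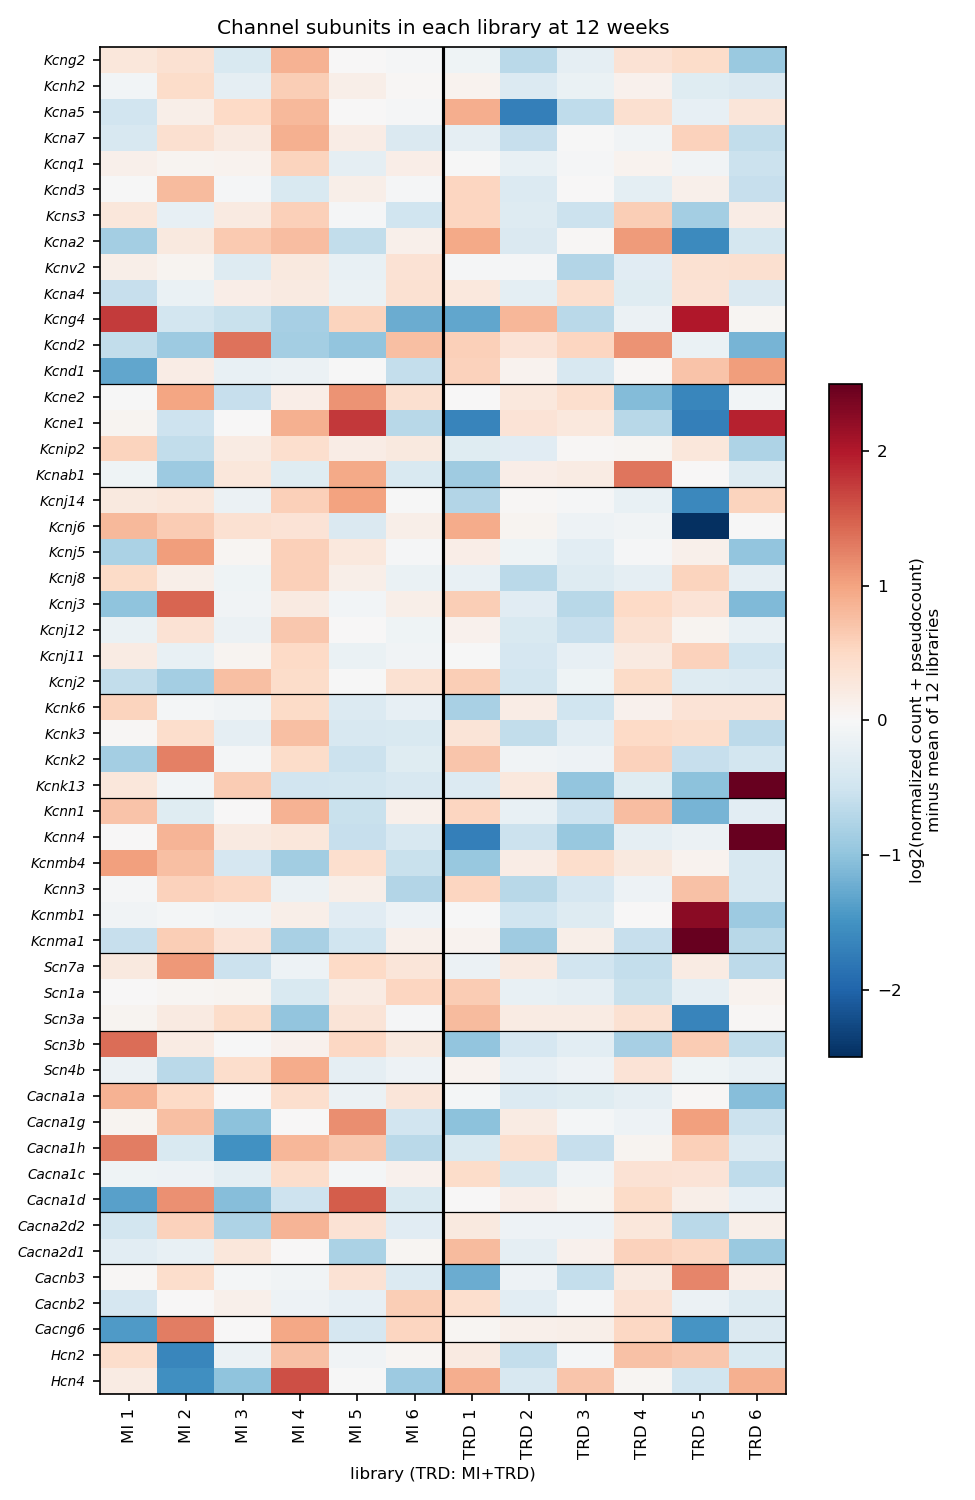
A set of 52 subunits (rows, grouped by role) in each of the 12 libraries (columns), as log2(normalized count + pseudocount) minus the gene's mean over the 12 libraries; the colour scale is capped at its ends. MI+TRD replicate 6 is low for many subunits and MI replicate 4 high, and single dark cells such as Kcnmb1 in MI+TRD replicate 5 mark genes that were high in 1 library. On this deposited scale the median of all genes was also high in MI replicate 4.

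Single libraries held the extremes of many members. On the deposited scale MI+TRD replicate 6 held the lowest value of 17 of the 56 members and MI replicate 4 the highest of 13. The same count was not made over all genes. Against each gene's MI mean, the median of all genes was 0.20 in MI replicate 4, beside 0.31 for the members. In MI+TRD replicate 6 these medians were -0.08 and -0.40. Without MI+TRD replicates 1, 4 and 5, 11 members were lower at an unadjusted p, where 9.7% of all genes were, and 0 were higher (2.66%). Among them were Cacna1a, Cacna1c, Kcna5, Kcng2, Kcnh2, Kcnj11, Kcnj12, Kcnj8, Kcnk3 and Scn3b. That selection was made with the libraries' values known, and 3 libraries of MI+TRD then stood against 6 of MI. The difference by gene span seen over all genes was smaller among the members, which was not tested. The 22 members of up to 20 kb had a median relative change of 0.03, beside -0.12 for all such genes. The 14 between 20 and 100 kb stood at -0.0029 beside 0.09, and the 20 longer ones at 0.09 beside 0.14.

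Some members followed markers of other tissue in single libraries, and the genes named here were picked after their values were seen. The summed level of the 5 atrial markers in the table lay between 91.2 and 5520 in MI and between 80.9 and 1196 in MI+TRD. Myl7, the atrial myosin light chain, was 3170 in MI replicate 2, 614 in MI+TRD replicate 2 and 321 in MI replicate 5, and at most 81.8 elsewhere. Kcnj3 and Kcnj5 were highest in MI replicate 2, at 28.8 and 40.7, where the other libraries lay between 4.73 and 16.0 and between 9.83 and 29.6. Kcnd3 (29.9), Kcnk2 (14.3) and Scn7a (57.9) were also highest there, and Cacna1d was highest in MI replicates 5 and 2, at 3.82 and 2.91. In MI+TRD replicate 2, in contrast, Kcnj3 read 8.47 and Kcnj5 18.2, both within the range of libraries with little Myl7. With the atrial score as a covariate 5 members were lower at an unadjusted p, the former 3 with Kcnip2 and Kcnq1, where 13.5% of all genes were, and 0 were higher (2.52%). What atrial tissue contributes to these values beyond that was not tested.

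Smooth muscle markers other than Smtn were highest in MI+TRD replicate 5. Smtn read 66.1 there, within its MI range of 51.7 to 86.6. The 6 markers summed to 792 there, against 187 to 287 in MI, and Cnn1, a smooth muscle calponin, read 46.4 against 1.18 to 4.997 elsewhere. Kcnmb1 and Kcnma1, the beta subunit and pore of the large-conductance calcium-activated channel of vessels, read 6.12 and 3.10 in that library, against 0.477 to 1.24 and 0.0424 to 0.534 elsewhere. Kcnj8, the vascular pore, was highest among MI+TRD libraries there. Macrophage markers were highest in MI+TRD replicate 6. The 7 markers summed to 384 there, against 35.3 to 82.7 in MI, and Cd68, a lysosomal protein of macrophages, read 47.8 against 0.527 to 3.60. Kcnn4, the intermediate-conductance channel of immune cells, read 9.51 there and at most 1.70 elsewhere, and Kcnk13 read 3.78 and at most 0.613. Without that library Kcnn4 stood at -0.61, lower at an unadjusted p, instead of 0.01. With all libraries edgeR and DESeq2 both placed it at 1.18, and edgeR gave an adjusted p of 0.481.

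**Figure D4:**
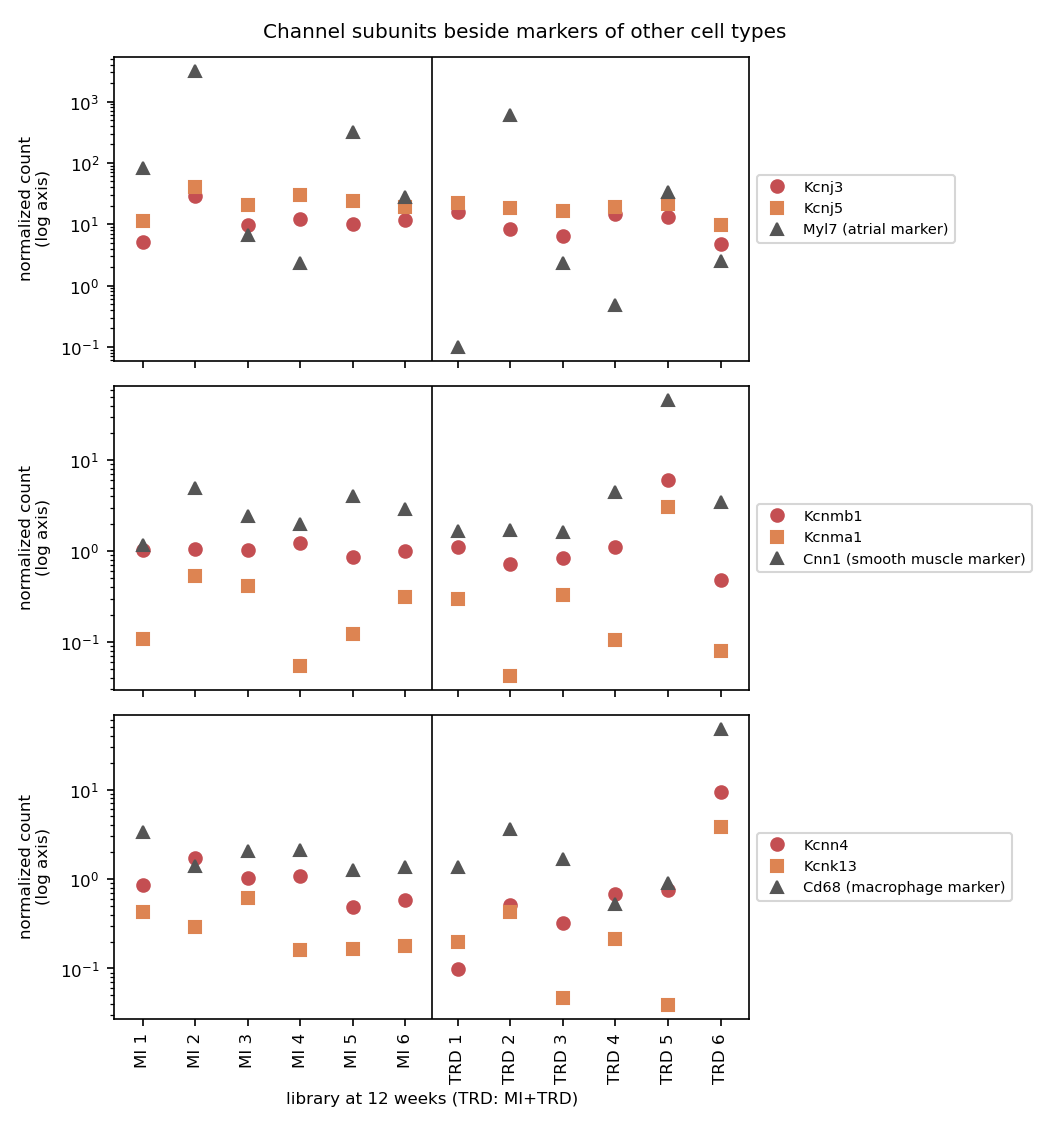
Normalized counts (log axes) of channel subunits (circles and squares) and of a marker (triangles) in the 12 libraries at 12 weeks, MI left and MI+TRD right of the line. Kcnmb1 and Kcnma1 are high with Cnn1 in MI+TRD replicate 5, Kcnn4 and Kcnk13 with Cd68 in MI+TRD replicate 6, and Kcnj3 and Kcnj5 with Myl7 in MI replicate 2 but not in MI+TRD replicate 2.

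At 6 weeks, in the authors' deposited table, other members led. Of 62 members 3 were lower in MI+TRD at an unadjusted p below 0.05 and 0 were higher, where 4.09% of all 11283 genes were lower and 4.42% higher. None passed the authors' false discovery rate at 0.05, nor did any gene (0.0%). In the authors' deposited table Scn1a had a mean of 9.49 in MI and 5.48 in MI+TRD, a ratio of 0.578, with a false discovery rate of 0.373 by the authors' model. Scn7a went from 36.5 to 21.5 there, a ratio of 0.590 (authors' false discovery rate 0.483), and Kcnd3, the transient outward pore, from 22.9 to 12.8, a ratio of 0.558 (authors' false discovery rate 0.495). The genes with the next smallest p in the authors' deposited table did not pass. Their ratios were 1.46 for Kcna4, 1.58 for Kcnd2, 2.02 for Kcne4, 2.53 for Kcnab2, 0.791 for Cacna1c, 3.45 for Kcnn4 and 0.463 for Cacnb1. There, 5 of 7 macrophage markers were higher at an unadjusted p, with Cd68 at a ratio of 5.47, beside 3.45 for Kcnn4 and 3.02 for Kcnk13. Of the fibroblast markers 4 of 6 were higher, and of the endothelial markers 3 of 5 (Tie1, Kdr and Emcn) were lower. The part of these cell types in the channel ratios was not tested, since no value per library was used at 6 weeks.

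The 6-week and 12-week comparisons shared no samples, and their difference was not tested. In the authors' deposited table for 12 weeks 5 members were lower at an unadjusted p, where 22.0% of all genes were. Among them, the ratios in the authors' deposited table were 0.551 for Scn3b, 0.622 for Cacna1a, 0.541 for Kcne2 and 0.638 for Kcnj14. Kcnd1, at a ratio of 1.78, was the 1 member that was higher (2.12% of all genes). No member passed that table's false discovery rate, which 2.94% of all genes did, and the lowest rate of a member was 0.0651. No member had p below 0.05 at both times. In the authors' deposited tables the 6-week ratios of genes lower at 12 weeks by limma were 0.756 for Cacna1a and 0.802 for Scn3b. The 3 lower at 6 weeks stood at relative log2 changes of -0.02 (Scn1a), -0.34 (Scn7a) and -0.02 (Kcnd3) in the limma fit at 12 weeks. Of 62 members 45 had ratios on the same side of 1 at both times (72.6%, against 60.2% of all genes). Once each table's median was subtracted 37 members had the same sign, and that count was not made over all genes.

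**Figure D5:**
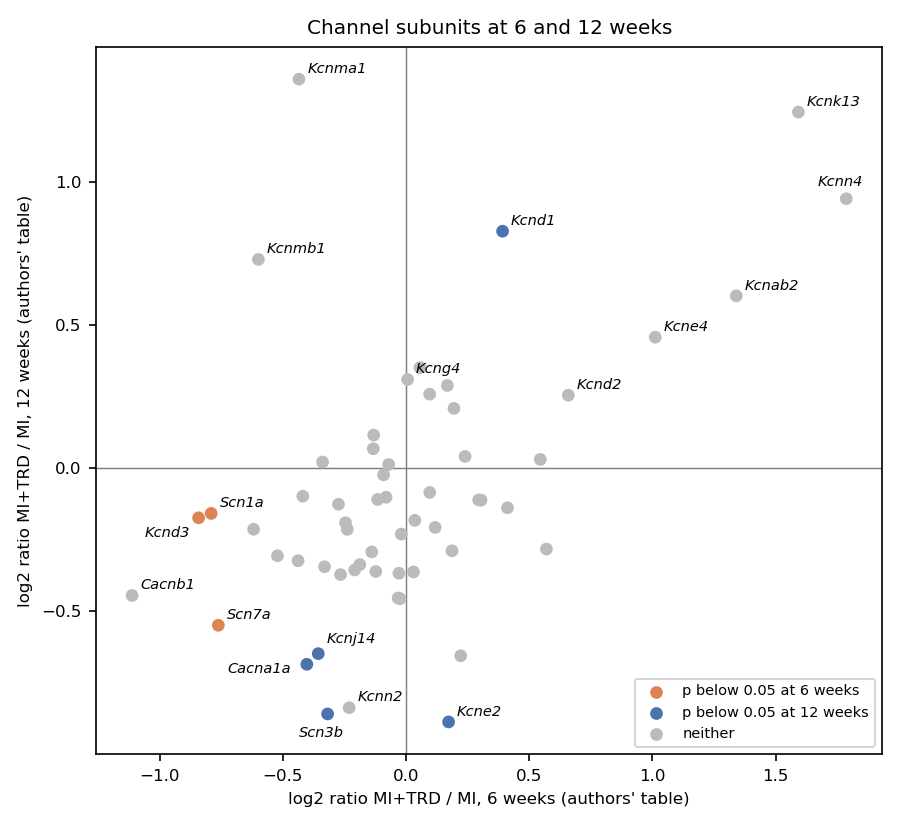
Log2 ratio of MI+TRD to MI for 58 subunits in the authors' deposited tables, at 6 weeks (x axis) and 12 weeks (y axis). Coloured points had p below 0.05 at 6 weeks (orange: Scn1a, Scn7a, Kcnd3) or at 12 weeks (blue), and no point had both. Kcnn4, Kcnk13 and Kcnab2 lie at the upper right, and Kcnma1 and Kcnmb1 at the upper left.

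The share of lower genes among partners of the channels was close to that of all genes. Of 63 genes that anchor, modify or transcribe channels, 53 were in the 12-week table, of which 10 were lower and 0 higher at an unadjusted p, where 19.1% and 2.8% of all genes were, and 0 passed adjustment by limma. That background moved with the scaling, as given above. Among the 10 were Cav3, Rrad, Rem1, Lrrc10, Nkx2-5, Trpm4, Fxyd1, Rangrf and Lgi4. Cav3, the muscle caveolin that anchors several of these channels, lay between 56.2 and 99.9 in MI and between 39.9 and 57.9 in MI+TRD, with means of 74.5 ± 16.9 and 49.1 ± 7.60 (relative change -0.44, limma adjusted p = 0.132). Lrrc10, which binds the L-type calcium channel, averaged 283 ± 71.1 and 172 ± 51.0 (relative change -0.60). Rrad and Rem1, small GTP-binding proteins that restrain L-type calcium current, stood at -0.39 and -0.41. At 6 weeks the authors' deposited table held 53 partners. Of these, 4 were lower (Akap9, Rem1, Trpm4 and Gja5) and 0 higher at an unadjusted p, where 4.09% and 4.42% of all genes were. Among the 4, Rem1 and Trpm4, a calcium-activated cation channel, were also lower at 12 weeks in the limma fit. Their 6-week ratios in the authors' deposited table were 0.702 and 0.746.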

How the data were processed

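Polyadenylated RNA of rat myocardium was sequenced by Illumina, per the labels' protocols. Partek and the build rn6 come from the submitters' processing notes. Aligner, counting rules, strandedness and model: not given in the sources used here. At 12 weeks the authors deposited normalized counts, a signal for each gene in each library, per the file headers. Each value equalled a whole number of reads plus 1, times the smallest value of its library (a step). Of the values up to 20 steps, 97.0% to 98.6% were whole to within 0.1. The authors also deposited a table for each time with p-values, step-up false discovery rates and the linear ratio between the groups, per the file headers. The same tables hold the authors' signed fold change (a score with no fixed range) and least-squares means per group, a signal.

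Limma 3.58.1 (R 4.3.3, eBayes with a trend, two-sided, no covariates) was fitted to log2(value + 0.229), a pseudocount of 5 steps, for the 12 libraries of 12 weeks. Genes with a mean share equal to at least 10 steps were kept, and p-values were adjusted over all of them by Benjamini-Hochberg at 0.05. This scale understates fold changes of low genes. Alternatives were edgeR 4.0.16 (quasi-likelihood) and DESeq2 1.42.0 on recovered reads, a Wilcoxon test, other scalings, pseudocounts and filters, covariates and left-out libraries. The script was tested on simulated data. Libraries of a group all differed by more than counting noise. Since no animals are named in the labels, p-values describe the spread among the samples, which may be technical. Limits for 0 reads cover counting error only.

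The members and lists were chosen with earlier results of these data known. Members named by rule were 29 canonical cardiac subunits, the 12 with the smallest p at 12 weeks and the 10 with the smallest p at 6 weeks in the authors' table. The rule also took any past adjustment and any whose groups did not overlap. Other members were named outside this rule, among them Kcnma1, Kcnmb1 and Kcnk13, which were picked after their values were seen. Gene coordinates are those of the deposited table (rn6). Promoters and their coordinates are RefSeq's (GRCr8). Some of these genes are not reported here by name and are not drawn, although they stayed in the fits and counts.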

Additional observations from a re-analysis of the deposited data

Results flagged for a closer look

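Of 112 groups of 6 values (56 members, MI and MI+TRD at 12 weeks), 13 held a library that stood far from the other 5 (by Dixon's test of the gap over the group's range). Chance alone marks about 1 group in 20, and over all genes tested 9.89% of 21266 such groups were marked, beside 11.6% for the members. MI+TRD replicate 5 was high for Kcnmb1 (6.12 normalized counts), Kcnma1 (3.10), Kcnj8 (13.9) and Scn3b (6.87). Its smooth muscle markers other than Smtn were high too. MI+TRD replicate 6 was high for Kcnn4 (9.51), Kcnk13 (3.78) and Kcne1 (3.10), and its macrophage markers were high too. MI replicate 2 was high for Kcnj3 (28.8) and Kcnd3 (29.9), and its atrial markers were high too. MI replicate 1 was high for Scn3b (11.8) and Kcng4 (3.76), MI replicate 4 for Hcn4 (49.7) and MI+TRD replicate 4 for Kcnab1 (2.004). The part of these tissues in the values was not tested.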

How the results depend on the processing

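No member passed adjustment under any of the alternatives run. Cacna1a and Scn3b were lower at an unadjusted p below 0.05 in each of them, leave-one-out fits included. The count of higher members was 1 instead of 0 with median ratio scaling, equal column totals, quantile normalization, the gene span trend removed, edgeR and DESeq2 (Kcnd1 in each), with library weights (Hcn4), and without MI replicate 2 and MI+TRD replicate 2 (Kcnd1), a pair chosen after seeing the data. The count of lower members was 5 with the atrial covariate and 11 without MI+TRD replicates 1, 4 and 5. Leaving out 1 library at a time gave 0 to 1 higher and 3 to 6 lower members, with 6 without MI replicate 3 and 5 without MI replicate 1 or MI+TRD replicate 2, 5 or 6. At 6 weeks the authors' false discovery rate called 0 members. Libraries numbered 2 to 5 each correlated best with their own number (r from 0.12 to 0.33), which is a hint from the data and not the design, while numbers 1 and 6 did not (-0.25 and -0.33) and correlated best with each other's. The numbers were therefore not treated as pairs. With the replicate number as a block 4 members were lower (Scn7a added) and 0 higher.

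Signs of relative changes, not only of small ones, turned as follows, and the cause was not tested. In the main fit Kcne2 had stood at -0.55, Kcnj14 at -0.52, Cacna2d1 at 0.43 and Kcne1 at -0.37. With a pseudocount of 1 step Kcnn4 was -0.18. With median ratios Kcnn4 was -0.029. With equal totals Kcnn4 was -0.040. With the span trend removed Cacna1h was -0.060, Kcna5 0.094 and Kcnk3 -0.019. With the atrial covariate Cacna1g was 0.35, Hcn2 -0.054, Kcnd3 0.078, Kcnj11 -0.089, Kcnj2 -0.26, Kcnj3 0.063, Kcnk3 -0.016 and Scn4b -0.18. With library weights Cacna1g was 0.042, Kcnj11 -0.0069, Kcnj2 -0.062 and Kcnn4 -0.20. Without MI+TRD replicates 1, 4 and 5 Cacna1c was -0.24, Cacna1h -0.046, Cacna2d1 -0.048, Cacnb2 -0.052, Hcn2 -0.082, Kcne1 0.74, Kcne2 0.0097, Kcnj11 -0.28, Kcnj14 0.0026, Kcnj2 -0.17, Kcnk3 -0.39 and Scn4b -0.056. Without MI replicate 2 and MI+TRD replicate 2 Cacna1g was 0.030, Cacna1h -0.12, Kcna5 0.11, Kcnd3 0.15, Kcnj12 0.028, Kcnj2 -0.012, Kcnj3 0.21 and Scn4b -0.054, while Kcnk3 kept its sign at 0.24. With edgeR Cacna1d was -0.087, Cacna1h -0.15 and Scn4b -0.0033. With DESeq2 Cacna1d was -0.094 and Cacna1h -0.15. Over the leave-one-out fits Cacna1g ran from -0.23 to 0.21, Cacna1h from -0.21 to 0.32, Kcna5 from -0.39 to 0.13, Kcnd3 from -0.15 to 0.11, Kcnj11 from -0.080 to 0.15, Kcnj12 from -0.15 to 0.016, Kcnj2 from -0.091 to 0.26, Kcnj3 from -0.30 to 0.18, Kcnk3 from -0.043 to 0.22, Kcnn4 from -0.61 to 0.33, Scn1a from -0.16 to 0.10 and Scn4b from -0.080 to 0.21.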
